A study of Mus musculus with 9 samples.

Results

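The natriuretic peptide receptors Npr1, Npr2 and Npr3, the cGMP-dependent protein kinases Prkg1 and Prkg2 and the cGMP phosphodiesterases Pde5a and Pde9a were followed in brown adipose tissue of obese mice. These 7 genes were taken by symbol from the 49315 genes listed for each library, and all 7 passed the filter on low counts. They were chosen with values of this same comparison in view, namely the level of each gene and the Npr3 to Npr1 ratio under cotadutide and vehicle, so their values are given as a description, without a test of each. The animals were male C57Bl/6J mice with diet-induced obesity, aged 14 weeks, acclimated for 3 weeks, housed singly, and fed a diet with 60% fat until they weighed about 50 g. The vehicle group (4 mice) and the cotadutide group (5 mice) were injected under the skin once a day for 28 days. Cotadutide is a peptide drug that activates both the GLP-1 receptor and the glucagon receptor, and its dose is not given in the sources used here. Both groups carried the same strain, diet and housing, were not kept at thermoneutrality, and gave 1 polyadenylated RNA library per mouse from a 30 mg piece of tissue.

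Natriuretic peptides are hormones of the heart and vessels that also act on fat cells. Npr1 (receptor A, for the atrial and B-type peptides) and Npr2 (receptor B, for the C-type peptide) carry a guanylyl cyclase domain and make cGMP, which activates the kinases of the Prkg genes. In fat cells this path is known to phosphorylate hormone-sensitive lipase and perilipin, and in brown fat to act through p38 kinases on thermogenic genes such as Ucp1. Npr3 (receptor C) has no cyclase domain and removes the peptides from the surroundings, and phosphodiesterases such as Pde5a and Pde9a end the signal by hydrolysing cGMP. The balance of Npr3 and Npr1 is commonly used in fat as a measure of how much peptide is cleared against how much is sensed.

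The start regions of the 2 receptors of the Npr3 to Npr1 ratio are shown for orientation, from RefSeq on GRCm38.p6, each 300 bases long with 250 before and 50 after the annotated start and written along the gene's minus strand. Capitals mark every match, on either strand, to 6 motifs. These were the cAMP response element with the letters TGACGTCA, the GC box with the letters GGGCGG, and the TATA box with the letters TATAAA. The others were the CCAAT box, which is named for its letters, the E-box with the letters CACGTG, and the estrogen-related receptor element with the letters TCAAGGTCA. The Npr3 region lies at chr15:11907322-11907621 and the Npr1 region at chr3:90465817-90466116. The RefSeq start of Npr3 lies outside the gene as counted here, which ends at 11905674.
Npr3: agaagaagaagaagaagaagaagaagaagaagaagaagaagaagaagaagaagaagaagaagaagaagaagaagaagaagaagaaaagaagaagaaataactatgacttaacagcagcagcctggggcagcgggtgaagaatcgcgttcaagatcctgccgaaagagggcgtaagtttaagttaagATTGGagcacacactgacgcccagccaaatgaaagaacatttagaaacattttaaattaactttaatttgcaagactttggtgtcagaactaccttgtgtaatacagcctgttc
Npr1: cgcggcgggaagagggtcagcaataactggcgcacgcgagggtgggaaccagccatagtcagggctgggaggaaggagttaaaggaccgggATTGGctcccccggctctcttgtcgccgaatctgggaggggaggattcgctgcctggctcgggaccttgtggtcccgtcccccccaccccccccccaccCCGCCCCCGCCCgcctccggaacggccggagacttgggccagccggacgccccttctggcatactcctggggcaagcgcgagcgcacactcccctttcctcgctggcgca
The Npr3 region opens with a repeat of 3 bases, has a GC content of 39.0% and held 1 CCAAT match and none of the other 5 motifs. The Npr1 region has a GC content of 69.7% and held 1 CCAAT match and 2 GC boxes. The median over 32851 such regions was a GC content of 52.7%, and 37.4% of them held CCAAT and 35.7% the GC box. Of the motifs that neither receptor held, TGACGTCA was in 1.79% of regions, TATAAA in 13.6%, CACGTG in 7.15% and TCAAGGTCA in 0.423%. A match is a description of these letters, and its absence says nothing of the factor.

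Library totals ranged from 10.8 M to 25.1 M counts, and edgeR (quasi-likelihood F test, p adjusted by Benjamini-Hochberg, threshold 0.05) called 1372 genes higher and 1378 lower of 14747 tested. Scaled by library totals alone, the split was 1049 higher and 1658 lower. Ucp1 stood at 3757 to 6684 CPM (counts per 1 M of the scaled library total) over the 9 mice, so this defining marker of the labelled tissue was abundant in each. Markers of other cell types differed between the libraries. The summed level of 10 skeletal muscle markers was 19403 to 42165 CPM in vehicle and 4509 to 16894 CPM in cotadutide mice, without overlap, highest in vehicle mouse 4 and lowest in cotadutide mouse 3. The 5 lymphocyte markers summed to 29.4 CPM in cotadutide mouse 3, against 1.52 to 2.82 CPM in the other 8 mice.

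Npr3 was the member that differed most between the groups, and Npr1 and Npr2 differed little. Npr3 was 4.95 times lower under cotadutide, at 292 ± 131 CPM (SD, n = 4) in vehicle and 59.0 ± 9.76 CPM (SD, n = 5) in cotadutide mice (log2 fold change -2.31, SE 0.32). Of the 7 members, edgeR called 1 lower, Npr3, where 9.34% of all tested genes were called lower, and 0 higher, where 9.3% were. The count was also 1 by DESeq2, which called 23.0% of all genes, and by limma-voom, which called 19.5%, and 1 member had an unadjusted p under 0.05, as did 35.7% of all genes. The contrast chose the members, so nothing is read from that count. In whole tissue, fewer cells of a type and less RNA per cell cannot be told apart.

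The Npr3 values were 376, 347, 348 and 96.3 CPM in vehicle mice 1 to 4, and 73.0, 48.4, 51.3, 62.6 and 59.5 CPM in cotadutide mice 1 to 5. The groups did not overlap, but vehicle mouse 4 lay much nearer to the cotadutide mice than to the other 3 vehicle mice. Groups without overlap and with vehicle higher were found for 7.79% of all tested genes, and with cotadutide higher, as for 0 members, for 8.06%. Without vehicle mouse 4 the log2 fold change of Npr3 was -2.60, and leaving out each mouse in turn gave -2.60 to -2.16. Npr3 ranked 18 of 14747 genes from the most negative log2 fold change. The gene (ENSMUSG00000022206) lies on chromosome 15 of mm10 from 11839896 to 11905674 on the minus strand, with 6927 bases of exon, and no other listed gene shared exon bases with it.

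Npr1, the cyclase receptor for the atrial peptide, was steady. It had 81.4, 76.8, 64.5 and 79.4 CPM in vehicle mice 1 to 4, and 72.2, 82.5, 98.3, 81.9 and 82.1 CPM in cotadutide mice 1 to 5. The groups overlapped, and the means of 75.5 ± 7.56 and 83.4 ± 9.40 CPM (SD, n = 4 and 5) gave a log2 fold change of 0.14 (SE 0.10). Npr1 (ENSMUSG00000027931) lies on chromosome 3 from 90450591 to 90465866, and 559 of its 4783 exon bases are shared with Gm16048 on the other strand. That gene had 105 counts over the vehicle and 75 over the cotadutide libraries, against 864 to 2095 counts of Npr1 in single libraries.

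Npr2, the receptor of the C-type peptide, had the smallest SD relative to its mean of the 7 genes in both groups. It had 40.8, 42.2, 43.1 and 44.1 CPM in vehicle mice 1 to 4, and 40.7, 37.9, 42.0, 40.2 and 39.7 CPM in cotadutide mice 1 to 5. The groups overlapped, and the means of 42.6 ± 1.41 and 40.1 ± 1.49 CPM (SD, n = 4 and 5) gave a log2 fold change of -0.09 (SE 0.06). Npr2 (ENSMUSG00000028469) lies on chromosome 4 from 43631935 to 43651244, and 266 of its 4667 exon bases are shared with Gm12473 on the other strand.

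**Figure D1:**
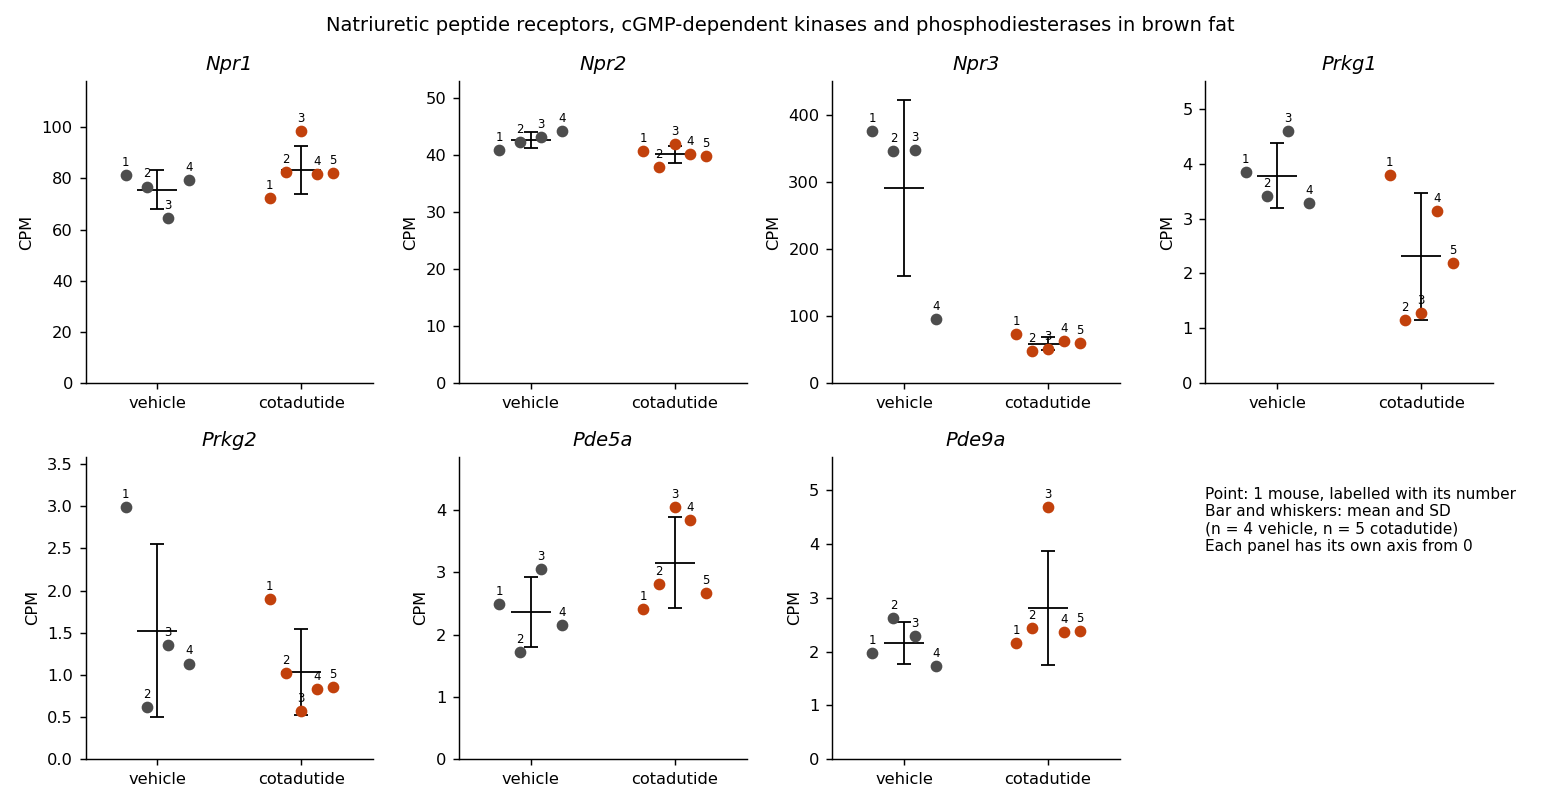
CPM of the 7 genes in each mouse, with the mean and SD of 4 vehicle and 5 cotadutide mice, each panel on its own axis from 0. The Npr3 panel shows 3 vehicle mice at 347 to 376 CPM and vehicle mouse 4 at 96.3 CPM, just above the cotadutide mice at 48.4 to 73.0 CPM. Groups overlap in the other 6 panels.

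The ratio of Npr3 to Npr1 counts does not depend on the scaling of the libraries. It was 4.62, 4.52, 5.38 and 1.21 in vehicle mice 1 to 4, and 1.01, 0.587, 0.522, 0.765 and 0.725 in cotadutide mice 1 to 5. Npr3 thus had more counts than Npr1 in each vehicle mouse and in cotadutide mouse 1, where the counts were nearly equal, and fewer in the other 4 cotadutide mice. The means were 3.93 ± 1.85 (SD, n = 4) and 0.722 ± 0.190 (SD, n = 5), and that of vehicle was 4.84 without vehicle mouse 4. The ratio of Npr3 to Npr2 did not overlap between groups either, with 2.18 to 9.21 in vehicle and 1.22 to 1.79 in cotadutide mice. The ratio of the cyclase receptors to each other, Npr2 to Npr1, overlapped between groups, with 0.502 to 0.668 and 0.427 to 0.564.

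Per length, as CPM per kilobase of exon (RPKM), the order of the receptors differed between the groups. In vehicle mice Npr3 stood at 42.1 ± 18.9 RPKM, Npr1 at 15.8 ± 1.58 and Npr2 at 9.12 ± 0.301 (SD, n = 4). The ranges of Npr3 and Npr1 overlapped because Npr3 was 13.9 RPKM in vehicle mouse 4, below Npr1 in the same mouse at 16.6 RPKM. In cotadutide mice Npr1 came first at 17.4 ± 1.97 RPKM, and Npr2 at 8.59 ± 0.320 and Npr3 at 8.51 ± 1.41 RPKM (SD, n = 5) overlapped. As a share of the summed per-length level of the 3 receptors, Npr3 made up 66.6% to 68.8% in vehicle mice 1 to 3, 34.8% in vehicle mouse 4 and at most 30.7% in cotadutide mice, with a mean of 24.7% ± 4.15 (SD, n = 5) in the latter. The per-length Npr3 to Npr1 ratio was 2.72 ± 1.28 in vehicle (SD, n = 4) and 0.498 ± 0.131 in cotadutide mice (SD, n = 5).

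**Figure D2:**
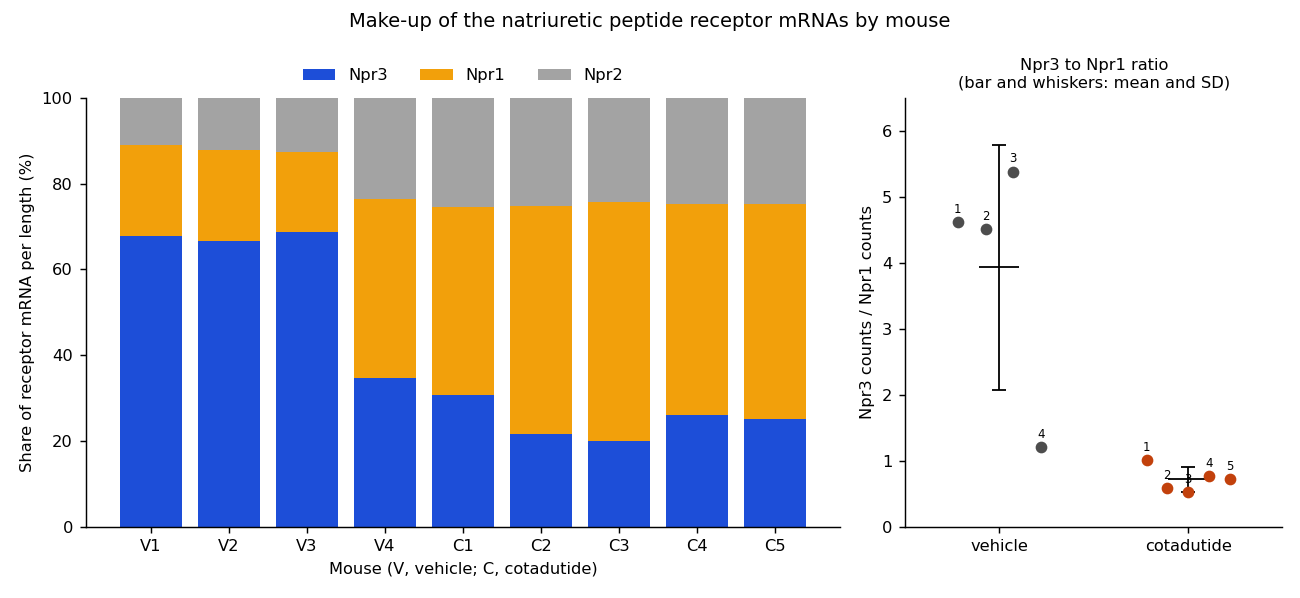
Left, share of the summed per-length level of the 3 receptor mRNAs in each mouse. Right, Npr3 counts over Npr1 counts per mouse with mean and SD (n = 4 and 5). Npr3 makes up 66.6% to 68.8% in vehicle mice 1 to 3 and at most 34.8% in the other 6 mice.

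The kinases were low. Prkg1, the cGMP-dependent kinase of smooth muscle and many other cells, had 3.84, 3.41, 4.59 and 3.29 CPM in vehicle mice 1 to 4, and 3.80, 1.15, 1.28, 3.13 and 2.19 CPM in cotadutide mice 1 to 5. These rest on 61 to 99 and 18 to 74 counts, and cotadutide mice 2 and 3 were lowest, with 18 counts each. The groups overlapped through cotadutide mouse 1, and the log2 fold change was -0.68 (SE 0.31), or -0.98 without that mouse. Cotadutide mice 2 and 3 also had the lowest summed skeletal muscle markers, at 7689 and 4509 CPM, and the lowest summed fibroblast markers, at 438 and 355 CPM. They were lowest too in summed macrophage markers, at 139 and 107 CPM, and in white adipocyte markers, at 180 and 120 CPM. With the mean log2 CPM of the muscle markers as a covariate, a fit added after the data were seen, the log2 fold change of Prkg1 was -0.06 (SE 0.42). That covariate differs between the groups together with the treatment, so the 2 cannot be told apart. The part of any of these cell types in the Prkg1 values was not tested. Prkg1 (ENSMUSG00000052920) spans chromosome 19 from 30567551 to 31765033.

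Prkg2, the second, membrane-bound kinase, had 2.99, 0.616, 1.35 and 1.13 CPM in vehicle mice 1 to 4, and 1.90, 1.02, 0.568, 0.825 and 0.856 CPM in cotadutide mice 1 to 5. The groups overlapped, and the highest value was that of vehicle mouse 1. The log2 fold change was -0.54 (SE 0.46), but 0.06 without vehicle mouse 1. These values rest on 8 to 77 counts per library. Prkg2 (ENSMUSG00000029334) lies on chromosome 5 from 98929773 to 99037351. Mural and smooth muscle markers, a source of Prkg1 in vessels, summed to 496 to 672 CPM in vehicle and 466 to 599 CPM in cotadutide mice and overlapped. Of these 10 markers, edgeR called 1 higher, Cnn1, and 1 lower, Abcc9, and the most abundant were Rgs5 and Cspg4. Over all tested genes 9.3% were called higher and 9.34% lower. The part of these markers in the kinase values was not tested.

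Both phosphodiesterases were low as well. Pde5a, the cGMP-specific enzyme that sildenafil blocks, had 2.49, 1.73, 3.06 and 2.16 CPM in vehicle mice 1 to 4, and 2.41, 2.82, 4.05, 3.85 and 2.66 CPM in cotadutide mice 1 to 5. The groups overlapped, with a log2 fold change of 0.43 (SE 0.22). Pde9a, which has a high affinity for cGMP and is linked to cGMP made by natriuretic peptide receptors, had 1.98, 2.63, 2.29 and 1.73 CPM in vehicle mice 1 to 4, and 2.16, 2.43, 4.69, 2.36 and 2.38 CPM in cotadutide mice 1 to 5. The cotadutide mean rested on mouse 3: the log2 fold change of Pde9a was 0.37 (SE 0.26), and 0.08 without it. That mouse also held the lymphocyte markers given above, such as Cd79a at 11.0 CPM, and their part in its Pde9a level was not tested. Pde5a (ENSMUSG00000053965) lies on chromosome 3 from 122728947 to 122859374 and Pde9a (ENSMUSG00000041119) on chromosome 17 from 31386234 to 31476310.

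Per length, Pde9a came next after the 3 receptors in both groups, at 0.761 ± 0.138 RPKM in vehicle (SD, n = 4) and 0.989 ± 0.374 RPKM in cotadutide mice (SD, n = 5), apart from its neighbours in the order. Prkg1 (0.485 ± 0.0754 RPKM), Prkg2 (0.284 ± 0.191 RPKM) and Pde5a (0.240 ± 0.0572 RPKM) followed in vehicle mice (SD, n = 4). In cotadutide mice the order was Pde5a (0.321 ± 0.0752 RPKM), Prkg1 (0.296 ± 0.148 RPKM) and Prkg2 (0.193 ± 0.0951 RPKM; SD, n = 5). Neighbours among these last 3 overlapped in both groups. The cyclase receptors thus lay well above the kinases and phosphodiesterases in the per-length level of this tissue.

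Beyond the 7 genes, 66 genes of the pathway were listed by role, of which 45 could be tested. edgeR called 2 higher, Pde3a and Rgs2, and 8 lower, or 22.2% against 18.6% of all genes. By DESeq2 12 of the 45 were called, Lipe and Pde6g being the 2 beyond edgeR's 10, where 23.0% of all tested genes were called. By limma-voom 10 of the 45 were called, with Nos1 and without Hspb6, where 19.5% of all tested genes were called. The median log2 fold change of the 45 genes was -0.03, against 0.00 over all tested genes.

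Messenger RNA of the peptides themselves was at the limit of detection in brown fat. Nppb (B-type peptide) had 0 counts in each of the 9 libraries, and with counting error alone its level could be up to 0.0360 CPM in vehicle mice and up to 0.0377 CPM under cotadutide. Nppa (atrial peptide) had 3 counts in 1 library of each group, and Nppc (C-type peptide) 10 counts over the vehicle and 9 over the cotadutide libraries. Corin, the protease that activates the atrial peptide, had 11 and 9 counts. Ostn, a secreted ligand of Npr3, could be tested and had 0.917 to 3.71 CPM in vehicle and 0.213 to 2.26 CPM in cotadutide mice (log2 fold change -0.44, SE 0.59). Of the enzymes that process or degrade the peptides, Ide (144 ± 42.6 against 113 ± 22.8 CPM, SD, n = 4 and 5) and Mme (neprilysin, 134 ± 27.8 against 116 ± 14.2 CPM) were the most abundant, with Ide the higher mean in vehicle and Mme in cotadutide mice. None of the 4 tested genes passed by edgeR, DESeq2 or limma-voom, which called 18.6%, 23.0% and 19.5% of all tested genes. An unadjusted p under 0.05 was found for 0 of the 4, against 35.7% of all tested genes. With 4 genes nothing is read from these counts.

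Of the other guanylyl cyclases and the nitric oxide synthases, edgeR called 1 of 5 tested genes, Nos2, lower. This was 20% of them, near the 18.6% called over all tested genes. Nos2, the inducible nitric oxide synthase, had 7.15, 10.0, 9.41 and 3.94 CPM in vehicle mice 1 to 4 and 3.62 to 4.12 CPM in cotadutide mice (log2 fold change -0.96, SE 0.23, edgeR adjusted p = 0.0215). Vehicle mouse 4 lay within the range of the cotadutide mice, below the other 3 vehicle mice. Leaving out vehicle mouse 1, vehicle mouse 2, vehicle mouse 3 or cotadutide mouse 2 ended the call (edgeR adjusted p = 0.0601, 0.0615, 0.0608 and 0.0528). Nos3, the endothelial synthase and the most abundant of this list, had 23.1 ± 2.32 and 25.5 ± 2.36 CPM (SD, n = 4 and 5), and the 10 endothelial markers summed to overlapping 679 to 876 and 757 to 978 CPM. The neuronal synthase Nos1 did not pass by edgeR (log2 fold change -1.27, SE 0.44, adjusted p = 0.0666) but was called lower by limma-voom (adjusted p = 0.0300). It had 8.47 to 13.1 CPM in vehicle and 1.35 to 10.3 CPM in cotadutide mice. Nos1 was highest in vehicle mouse 4 and lowest in cotadutide mouse 3, as were the summed skeletal muscle markers. Cotadutide mouse 5, at 10.3 CPM, lay within the range of the vehicle mice. The part of muscle in the Nos1 values was not tested. The subunits of soluble guanylyl cyclase, which senses nitric oxide, were level between the groups. Gucy1a1 stood at 7.74 ± 1.38 and 7.68 ± 1.54 CPM and Gucy1b1 at 7.35 ± 1.47 and 7.03 ± 0.951 CPM (SD, n = 4 and 5). Gucy2c and Gucy2f had 0 counts in every library.

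Of 9 other genes tested for phosphodiesterases that hydrolyse cGMP, or for their subunits, edgeR called 1 higher and 0 lower. This was 11.1%, near the 9.3% of all tested genes called higher. Pde3a, whose hydrolysis of cAMP is inhibited by cGMP, had 5.36, 5.87, 7.12 and 8.20 CPM in vehicle mice 1 to 4 and 8.32, 11.0, 14.2, 12.3 and 11.5 CPM in cotadutide mice 1 to 5. The groups did not overlap, though vehicle mouse 4 and cotadutide mouse 1 were nearly level. Pde3a rose 1.73-fold, or by 0.79 in log2 with an SE of 0.17 (edgeR adjusted p = 0.0178), and the call was lost without vehicle mouse 1 or 2 (edgeR adjusted p = 0.0601 and 0.0544). Its paralog Pde3b, the form known from fat cells, was the most abundant at 192 ± 24.8 and 229 ± 28.2 CPM (SD, n = 4 and 5) and did not pass (edgeR adjusted p = 0.131). The exporter Abcc5, which moves cyclic nucleotides out of cells, fell by 0.36 on the log2 scale (37.7 ± 2.41 against 29.4 ± 4.53 CPM, SD, n = 4 and 5, edgeR adjusted p = 0.0487). Cotadutide mouse 2 was lowest at 21.6 CPM, and without it the log2 fold change of Abcc5 was -0.27 (edgeR adjusted p = 0.0586). Leaving out vehicle mouse 1, vehicle mouse 2, vehicle mouse 3 or cotadutide mouse 3 also ended that call (edgeR adjusted p = 0.0936, 0.108, 0.0944 and 0.0645).

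Of 11 substrates and effectors of cGMP-dependent kinase, 1 rose and 3 fell by edgeR, and the groups did not overlap for these 4. Over all tested genes 18.6% were called and 15.8% had groups without overlap. Rgs2, a brake on Gq signalling that the kinase activates in smooth muscle, had 42.9, 61.4, 46.2 and 81.8 CPM in vehicle mice 1 to 4 and 113, 145, 204, 127 and 144 CPM in cotadutide mice 1 to 5. It rose 2.53-fold, or by 1.34 in log2 with an SE of 0.22 (edgeR adjusted p = 0.0140) and remained called when any single mouse was left out. Rock2, a kinase that promotes smooth muscle contraction, fell by 0.58 on the log2 scale (73.8 ± 8.60 against 49.4 ± 6.16 CPM, SD, n = 4 and 5, edgeR adjusted p = 0.0147), and without vehicle mouse 1 it missed the threshold (edgeR adjusted p = 0.0520). Kcnma1, a potassium channel opened in smooth muscle, fell by 0.98 on the log2 scale (3.42 ± 0.214 against 1.71 ± 0.510 CPM, SD, n = 4 and 5, edgeR adjusted p = 0.0184). Without vehicle mouse 1 it missed the threshold too (edgeR adjusted p = 0.0560). The Kcnma1 values rest on 58 to 84 counts in vehicle and 16 to 43 counts in cotadutide libraries. Hspb6, a small heat shock protein abundant in muscle, fell by 1.18 on the log2 scale (271 ± 43.0 against 120 ± 58.4 CPM, SD, n = 4 and 5, edgeR adjusted p = 0.0402). Cotadutide mice 2 and 3, lowest in muscle, fibroblast, macrophage and white adipocyte markers, were also lowest in Hspb6, at 91.3 and 38.8 CPM. The part of these cells in the Hspb6 values was not tested. The Hspb6 call was lost without any of the 4 vehicle mice or without cotadutide mouse 2 or 4 (edgeR adjusted p from 0.0625 to 0.136), and by limma-voom (adjusted p = 0.0580). Rhoa, the most abundant of this list, was level at 252 ± 20.5 and 247 ± 13.4 CPM (SD, n = 4 and 5).

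The p38 kinase arm, which links cGMP to thermogenic genes, was listed together with the lipolytic substrates Lipe and Plin1. Of these 10 genes 3 fell and 0 rose by edgeR, where 9.34% of all tested genes were called lower and 9.3% higher. An unadjusted p under 0.05 was found for 4 of the 10, Lipe among them, against 35.7% of all tested genes. Map2k6, a kinase that activates p38, had 6.25, 7.23, 6.30 and 5.29 CPM in vehicle mice 1 to 4 and 3.29, 2.43, 2.84, 3.35 and 2.38 CPM in cotadutide mice 1 to 5. It was 2.17 times lower (log2 fold change -1.12, SE 0.16, edgeR adjusted p = 0.0122) and remained called when any single mouse was left out. Map2k3, the other activator, fell by 0.49 on the log2 scale (67.8 ± 5.86 against 48.2 ± 9.37 CPM, SD, n = 4 and 5, edgeR adjusted p = 0.0296). Mapk12, the p38 form typical of skeletal muscle, fell by 0.65 on the log2 scale (39.3 ± 5.21 against 25.0 ± 4.67 CPM, SD, n = 4 and 5, edgeR adjusted p = 0.0164). The call of Map2k3 ended when vehicle mouse 1, vehicle mouse 2, vehicle mouse 3 or cotadutide mouse 2 was left out, and that of Mapk12 without vehicle mouse 1 (edgeR adjusted p from 0.0518 to 0.0827). Mapk14, the p38 form found in most cells, was level at 67.4 to 86.4 CPM over all mice. The lipolytic substrates did not pass by edgeR. Lipe, hormone-sensitive lipase, had 1158 ± 56.9 and 1373 ± 86.6 CPM (SD, n = 4 and 5) without overlap of the groups (edgeR adjusted p = 0.0645, limma-voom 0.0562), and DESeq2 called it higher (adjusted p = 0.0109). Plin1, perilipin, had 1310 ± 56.4 and 1463 ± 121 CPM (SD, n = 4 and 5, edgeR adjusted p = 0.228). Of the 4 genes for Gi signalling, to which Npr3 has been linked, 0 passed by edgeR, DESeq2 or limma-voom and 0 had an unadjusted p under 0.05. Over all tested genes the shares were 18.6%, 23.0%, 19.5% and 35.7%, so with 4 genes nothing is read from these counts. Gnai2 was the most abundant at 126 ± 16.2 and 113 ± 5.47 CPM (SD, n = 4 and 5).

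**Figure D3:**
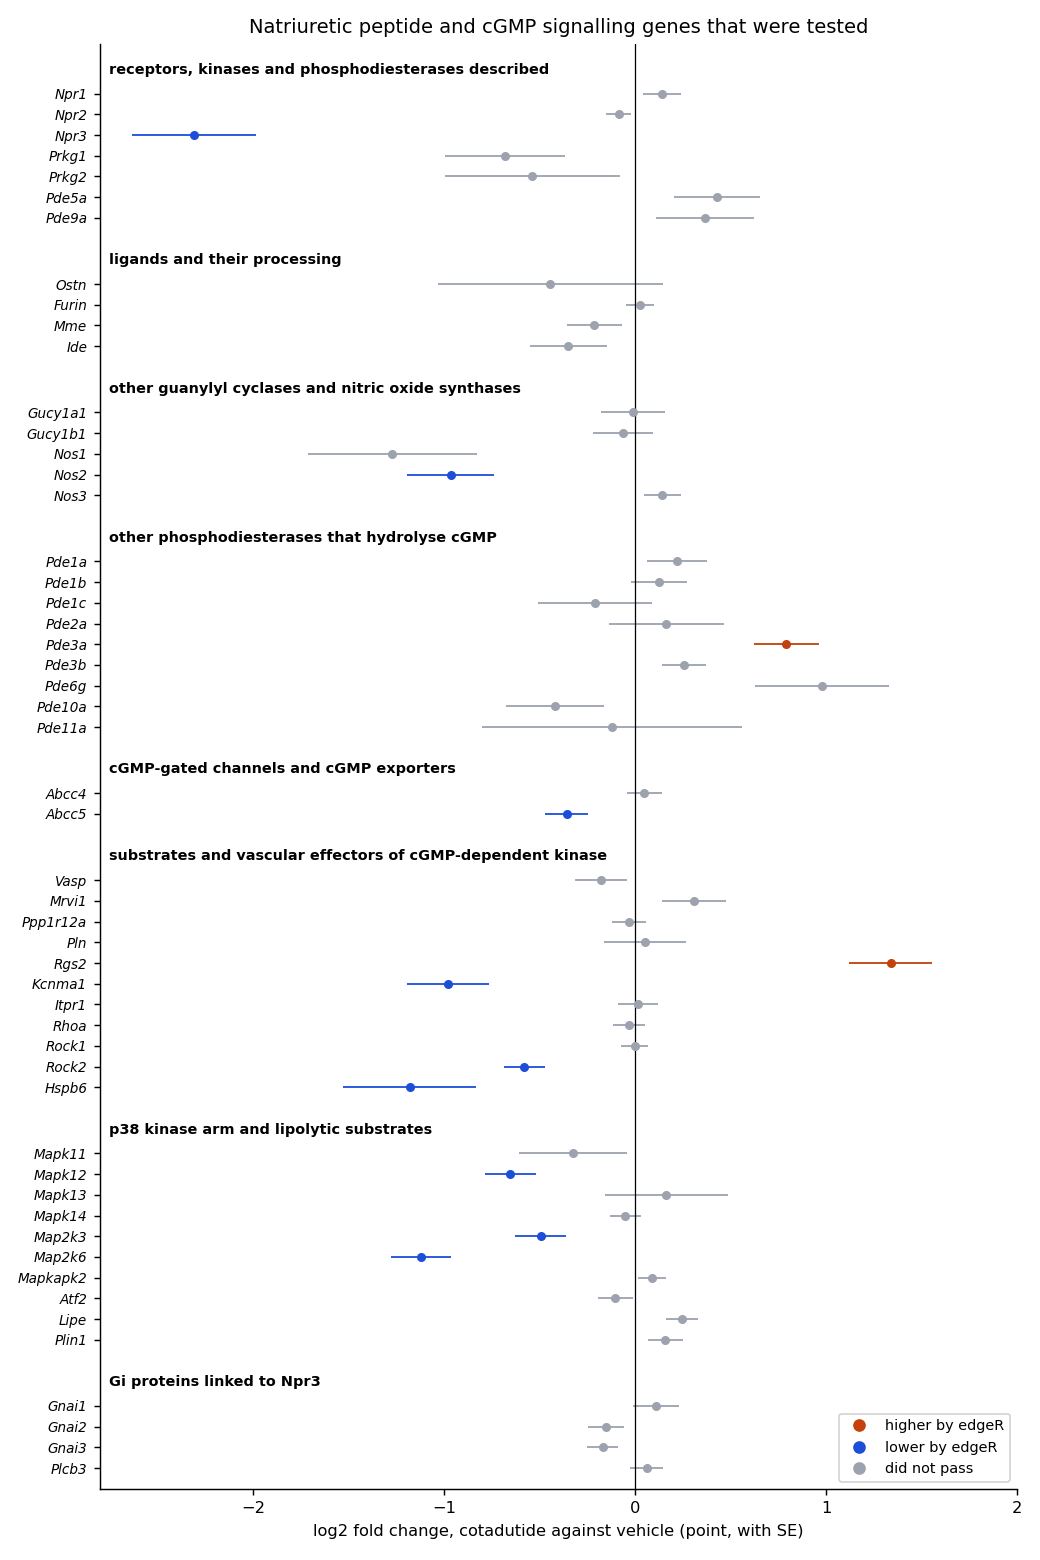
log2 fold change with SE of the 7 genes and of the 45 other pathway genes tested, cotadutide against vehicle, grouped by role. Npr3 lies farthest to the left at -2.31, Map2k6 (-1.12) and Hspb6 (-1.18) are called lower, and Rgs2 (1.34) and Pde3a (0.79) are called higher by edgeR.

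The skeletal muscle markers differed between the groups with the treatment, and 5 of 10 were lower by edgeR, against 9.34% of all tested genes. The median log2 fold change of the 10 markers was -1.21. Their most abundant genes, Myh4 and Acta1, had log2 fold changes of -1.40 and -1.25. With the mean log2 CPM of these markers as a covariate, edgeR called 0 of 14747 genes, Npr3 included, and 2215 had an unadjusted p under 0.05. The log2 fold change of Npr3 was then -2.43 (SE 0.56), against -2.31 without the covariate. The other members had log2 fold changes nearer to 0 or of the other sign, with Npr1 at -0.03, Npr2 at -0.08, Prkg2 at -0.27, Pde5a at -0.00 and Pde9a at -0.34. Of the pathway genes called without the covariate, the log2 fold change was farther from 0 for Map2k6 (-1.14) and Nos2 (-1.23). It was nearer to 0 for the other 8, at 1.17 for Rgs2, -0.48 for Rock2, 0.61 for Pde3a, -0.29 for Abcc5, -0.54 for Kcnma1, -0.16 for Hspb6, -0.22 for Mapk12 and -0.06 for Map2k3. With the covariate the SE was larger, at 0.36 against 0.23 for Nos2 and 0.26 against 0.17 for Pde3a. The covariate and the treatment differ together between the groups, so their parts cannot be told apart. These shifts therefore do not sort the genes by their link to muscle. Vehicle mouse 4 had both the highest muscle markers, at 42165 CPM, and the lowest Npr3 of its group. It was also highest of its group in summed brown adipocyte markers, at 11790 CPM, within the 11433 to 16616 CPM of the cotadutide mice. Its summed Schwann cell and sympathetic neuron markers, at 104 CPM, were the highest of all mice. The part of any of these in its Npr3 level was not tested.

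**Figure D4:**
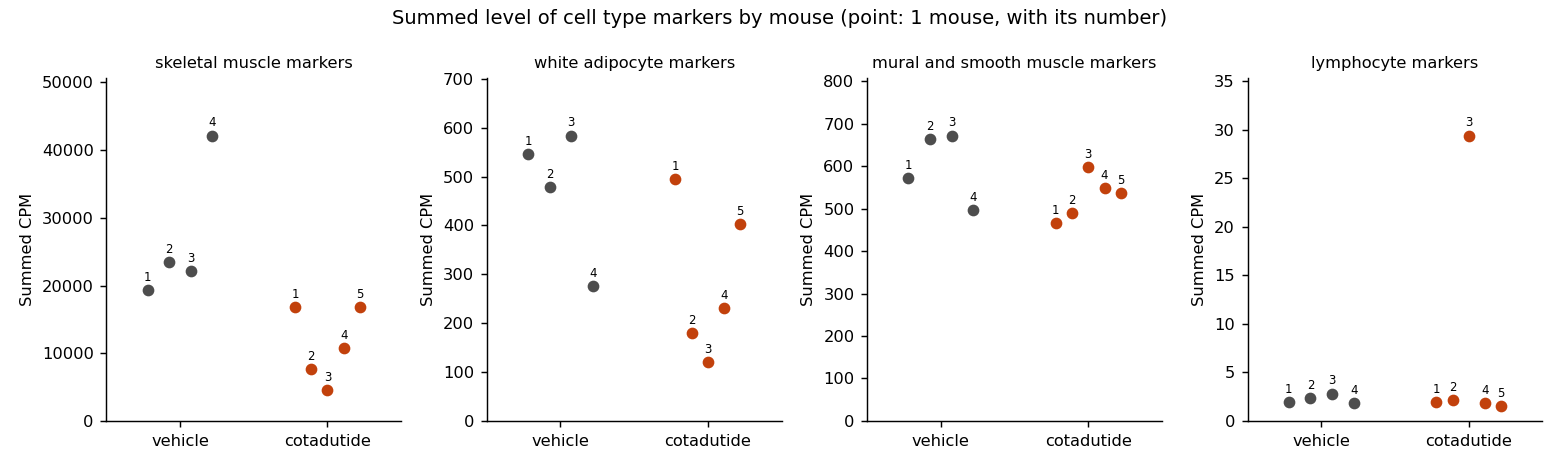
Summed CPM of the markers of 4 cell types in each mouse, each panel on its own axis from 0. Skeletal muscle markers do not overlap between groups, and lymphocyte markers stand out in cotadutide mouse 3 at 29.4 CPM. Vehicle mouse 4 is highest in muscle markers and, at 277 CPM, lowest of its group in white adipocyte markers.

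Markers of white fat cells, where Npr3 is also known to be abundant, summed to 277 to 584 CPM in vehicle and 120 to 496 CPM in cotadutide mice and overlapped. Of 4 tested, 1 fell by edgeR, Lep, which had 319, 300, 271 and 50.3 CPM in vehicle mice 1 to 4 and 14.1 to 44.2 CPM in cotadutide mice. Nnat, the other abundant marker of the list, had a log2 fold change of -0.18 (SE 0.47), Hoxc8 one of -0.12 (SE 0.21), and Retn one of the other sign, 0.79 (SE 0.34, edgeR adjusted p = 0.119). Hoxc9 and Hoxc10 were at or near 0 in every library. Of 8 brown adipocyte markers 4 were higher and 0 lower by edgeR, and 2 of 6 shared adipocyte markers were higher and 0 lower. Over all tested genes edgeR called 9.3% higher and 9.34% lower. The brown adipocyte markers that did not pass were Ucp1, Elovl3, Ppargc1a and Dio2. Of 7 fibroblast markers 0 passed by edgeR, while 3 had an unadjusted p under 0.05 and DESeq2 called 1. Over all tested genes 35.7% had such an unadjusted p and DESeq2 called 23.0%. Of 7 macrophage markers 4 were lower by edgeR, against 9.34% of all tested genes. The part of these cells in the Npr3 values was not tested.

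Among the 10133 tested genes with a mean of at least 5 CPM, those whose log2 level over the 9 mice lay nearest to that of Npr3 were Lbp, Fads3, Ccnd1, Lctl and Tmem45b. Nearness was the root mean square difference of log2 CPM after centring each gene, and it was 0.27 for Lbp, 0.32 for Fads3, 0.37 for Ccnd1, 0.43 for Lctl and 0.44 for Tmem45b. Lbp, which encodes lipopolysaccharide binding protein, had 38.9, 24.3, 31.4 and 8.20 CPM in vehicle mice 1 to 4 and 3.62 to 8.58 CPM in cotadutide mice. Fads3, of the fatty acid desaturase family, had 103, 88.6, 90.7 and 27.4 CPM in vehicle mice 1 to 4 and 16.2 to 30.8 CPM in cotadutide mice. Ccnd1, which encodes cyclin D1, had 16.1, 16.5, 12.5 and 4.96 CPM in vehicle mice 1 to 4 and 3.01 to 5.60 CPM in cotadutide mice. In all 5 genes vehicle mouse 4 lay within the range of the cotadutide mice, as it did not for Npr3. They were picked for this likeness, so it is a description.

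**Figure D5:**
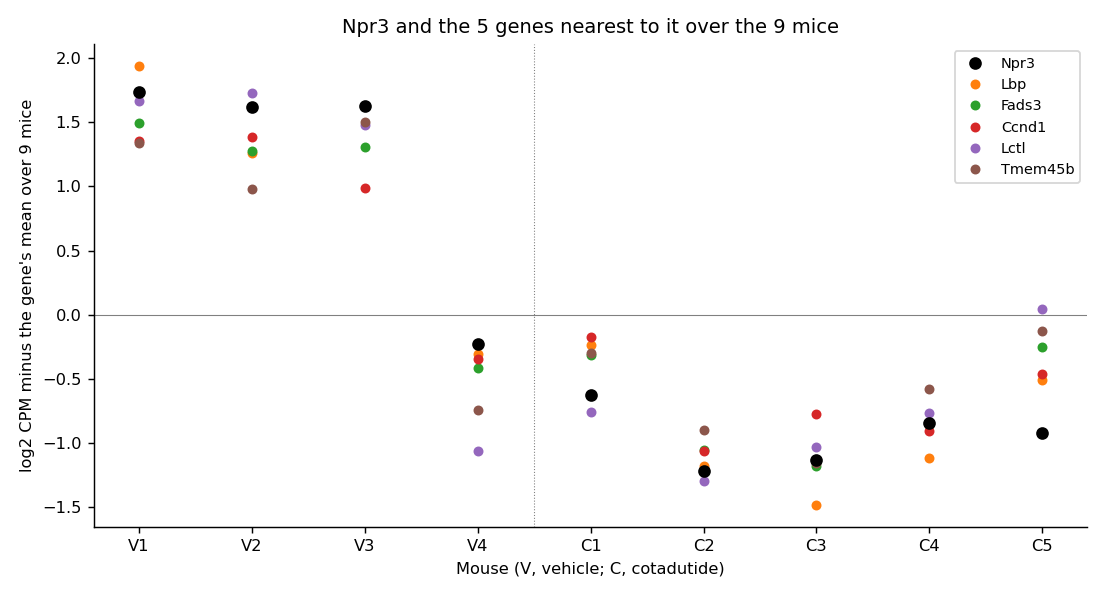
log2 CPM of Npr3 and of the 5 nearest genes in each mouse, minus each gene's mean over the 9 mice. Vehicle mice 1 to 3 are high for all 6 genes, and vehicle mouse 4 lies with or near the cotadutide mice.

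For each of the other members the 2 nearest genes were found in the same way. Nearest to Npr1 were Haus7 and Gnas (root mean square difference 0.06 for each), and nearest to Npr2 were Chtop (0.03) and Sltm (0.04). Nearest to Prkg1 were Myom3 and Lyve1 (0.20 for each), and nearest to Prkg2 were Cd209f (0.23) and Pi16 (0.24). For Pde5a they were Zfp395 and Mpp2 (0.13 for each), and for Pde9a Wdr91 and Slc28a2 (0.14 for each).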

How the data were processed

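RNA of brown adipose tissue of 9 mice was analysed, with 1 deposited file of raw counts of reads per Ensembl gene for each. Per the submitters' processing notes, the tools were bcl2fastq 2.17, Trimmomatic 0.36, STAR 2.5.2b and featureCounts of Subread 1.5.2 on mm10, while the strand setting and the release of the annotation are not given, so reads of a gene and its antisense partner cannot be told apart. Of 49315 identifiers 48970 were matched to a symbol, and Irag1 was found under its other name Mrvi1. The deposited length column equals the union of the listed exons.

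Genes were tested with edgeR 4.0.16 in R 4.3.3 (filterByExpr, TMM factors, glmQLFit with robust dispersion, glmQLFTest) on all 9 libraries with the group as the only term and Benjamini-Hochberg adjustment over 14747 genes at 0.05. The SE of a log2 fold change is its size over the square root of F. CPM were counts over the TMM-scaled total, RPKM were CPM per kilobase of the length column. Libraries of 1 group differed beyond counting noise in every pair (chi-square per degree of freedom at least 12.7). The test was checked on simulated counts. Alternatives were DESeq2 1.42.0, limma-voom of limma 3.58.1, other scaling factors, other filters, the mouse number as a block and each mouse left out.

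The members and lists were chosen with earlier results of these data known. Genes named were the 7 members, up to 4 called genes and the most abundant of each pathway list, the 2 most abundant of each marker list and the genes nearest to a member. Nppa, Nppb, Nppc, Corin, Ostn, Mme, Nos1, Gucy1a1, Gucy1b1, Gucy2c, Gucy2f, Mapk14, Lipe, Pde6g, Lep, Retn, Hoxc8, Cnn1, Abcc9, Cd79a, Hoxc9 and Hoxc10 were added for their roles after their values were seen. For a gene at 0 the limit is 3 counts in the summed libraries of its group.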

Additional observations from a re-analysis of the deposited data

Results flagged for a closer look

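Of 48 groups of 4 or 5 mice checked for a mouse far from the rest, 4 were picked out, and chance alone picks about 1 in 20. Npr3 in vehicle mouse 4 was 96.3 CPM, far below vehicle mice 1 to 3 at 347 to 376 CPM. Mapk12 in vehicle mouse 4 was 47.1 CPM, against 36.0 to 37.5 CPM in the others of its group. Pde9a in cotadutide mouse 3 was 4.69 CPM, against 2.16 to 2.43 CPM in the other 4 cotadutide mice. Abcc5 in cotadutide mouse 2 was 21.6 CPM, against 30.2 to 33.1 CPM in the others.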

How the results depend on the processing

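Without each mouse in turn, genes called by edgeR ranged from 47 to 2116 higher and from 92 to 1724 lower. The lowest counts, 47 and 92, came without vehicle mouse 1, and none of the genes called in all 9 mice was called the other way in any fit run. The pathway genes called ranged from 1 to 3 higher and from 1 to 9 lower. The members called lower ranged from 1 to 2, the second being Prkg1 without cotadutide mouse 1. That fit called 1724 of 14445 tested genes lower. The contrast chose the members, so nothing is read from their count here either. The mean Npr3 to Npr1 ratio ranged from 3.45 to 4.84 in vehicle and from 0.649 to 0.772 in cotadutide mice. Rhoa changed sign only without vehicle replicate 1, at 0.0188, over a log2 range of -0.0783 to 0.0188. Without a filter on low counts 900 genes were higher. By DESeq2 4 pathway genes were higher, against 2. Counted per base, the cotadutide ratio was 0.498. With the mouse number as a replicate block 516 genes were higher and 768 lower, and Nos2, Abcc5 and Hspb6 lost their calls. Deviations of same-numbered mice correlated at 0.14, -0.04, 0.02 and -0.01 for numbers 1 to 4, and of these only number 1 correlated best with its own, so the numbers were not taken as pairs. With the skeletal muscle score as a covariate, added after the data were seen, edgeR called 0 genes higher and 0 lower, 0 pathway genes and 0 members, while 2215 genes had an unadjusted p under 0.05. Prkg1, Prkg2, Pde5a and Pde9a rest on 8 to 99 counts per library, and how far depth limits their values was not tested.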
